A study of Mus musculus with 8 samples.

Results

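Interferon-gamma treated disseminated cancer cells (DCC) were compared with cells of an early mammary tumour lesion across all measured mouse genes. The comparison used every gene entry of the deposited RNA-seq count table in 4 libraries out of 8 in the series. The DCC IFN-gamma group (2 libraries) was grown from cells taken from bone marrow of mice with spontaneous, metastasising breast cancer and treated with interferon-gamma, at a dose and for a time that the labels do not state. The early lesion group (2 libraries) held cancer cells isolated directly from early mammary tumours, and its sample titles name neuT, an activated rat Erbb2 oncogene. All samples carry the genotype label WT, although the protocol text shared by all samples speaks of a transgenic breast cancer model. The labels do not state which promoter drives the transgene, how many mice were used or whether any were pooled. That shared text also lists TNF-alpha and anti-HER2 antibodies, which no sample label of this series assigns. Untreated DCC (DCC control, 2 libraries) are set beside the results, because interferon treatment, growth in culture, bone marrow origin and cell make-up all separate the compared groups and cannot be told apart from these 4 libraries alone. The labels call replicates biological, and p-values rest on a spread between replicates that was estimated over all 8 libraries of the series.

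The gene counts of DCC IFN-gamma replicates 1 and 2 summed to 27998570 and 28552291, and those of early lesion replicates 1 and 2 to 30168475 and 19812619. Early lesion replicate 2 stood apart. Reads outside annotated genes made up 44.1% of its total against 21.9% to 27.4% in the other 3 libraries, and 63.6% of 1457 olfactory and vomeronasal receptor genes had a count in it against 1.24% to 2.06% in those 3. Genes near 0 in early lesion replicate 1 therefore often had a low value in replicate 2. Untreated DCC replicate 1 shared this, with 49.2% of reads outside annotated genes and 47.7% of the receptor genes with a count. Untreated DCC replicate 2 had 31% and 11.9%. Low values in untreated DCC, above all in its replicate 1, carry the same limit. The DCC IFN-gamma replicates differed more from each other than the lesion replicates did. Of genes with at least 10 CPM (counts scaled to library size, the usual CPM unit) in the group, 5.4% differed by more than 2-fold between the DCC IFN-gamma replicates (405 higher in replicate 2 and 82 higher in replicate 1) and 0.371% between the early lesion replicates. The same share was 0.851% in untreated DCC. The test uses a spread per gene that all groups share, so it can understate the spread of DCC IFN-gamma. Values of both libraries are therefore given for most genes, always in the order replicate 1 and replicate 2. Ranks, and levels per length of transcript where a single value stands for a group, rest on group means and do not show this spread. Where a group had no count, its fold change is a lower limit, computed as if each of its libraries held 3 counts, which is 0.0953 to 0.134 CPM here.

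Interferon-gamma is the main cytokine of CD4 Th1 and natural killer cells. It binds the receptor Ifngr1-Ifngr2, activates the kinases Jak1 and Jak2, and so brings STAT dimers to gamma-activated sites in DNA. Interferon regulatory factors (IRFs) made in that first step act through a second element, the interferon-stimulated response element. Early neuT lesions arise from luminal mammary epithelium, whose identity rests on adhesion proteins such as E-cadherin and Epcam, on simple keratins, and on transcription factors such as Elf5 and Gata3. The repressors Zeb1, Snai1 and Snai2 are known to silence such genes through the E-box CACCTG. The series was designed to ask how disseminated cells differ from tumours and how they respond to a Th1-type signal.

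The promoters of Irf1, Igtp, Cxcl10, B2m, Epcam and Krt8 show these elements at genes on which the comparison turns. Each runs 5′ to 3′ on the gene's strand from 250 bases before to 50 bases after the transcription start, as listed by RefSeq on GRCm38.p6, with matched elements in capitals. Irf1 (chr11:53769764-53770063, plus strand) has a gamma-activated site, TTCNNNGAA, 90 to 82 bases before the start. RefSeq lists another Irf1 start, whose window (chr11:53770223-53770522) holds none of the elements searched here. Igtp (chr11:58199306-58199605, plus strand) has a gamma-activated site 45 to 37 bases before the start and a response element, GAAA repeated after any 2 bases, close behind it, 34 to 25 bases before the start. Response elements alone lie in Cxcl10 (chr5:92348840-92349139, minus strand) and B2m (chr2:122147437-122147736, plus strand). Epcam (chr17:87635729-87636028, plus strand) has the E-box 187 to 182 bases before the start and, as CAGGTG on the opposite strand, 19 to 14 bases before it. Krt8 (chr15:102004293-102004592, minus strand) has 1 E-box, 111 to 106 bases before the start.
Irf1: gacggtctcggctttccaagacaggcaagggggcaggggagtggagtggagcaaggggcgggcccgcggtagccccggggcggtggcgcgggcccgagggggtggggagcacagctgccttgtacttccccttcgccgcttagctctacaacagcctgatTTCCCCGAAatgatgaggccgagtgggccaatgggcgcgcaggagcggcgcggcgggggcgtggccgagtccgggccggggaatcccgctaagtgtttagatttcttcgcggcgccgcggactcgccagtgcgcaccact
Igtp: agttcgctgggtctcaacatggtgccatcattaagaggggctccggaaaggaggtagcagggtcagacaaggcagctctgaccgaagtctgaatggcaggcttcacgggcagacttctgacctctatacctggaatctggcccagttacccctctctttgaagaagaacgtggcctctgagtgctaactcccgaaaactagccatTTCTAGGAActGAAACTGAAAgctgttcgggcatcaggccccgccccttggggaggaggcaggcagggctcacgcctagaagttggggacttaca
Cxcl10: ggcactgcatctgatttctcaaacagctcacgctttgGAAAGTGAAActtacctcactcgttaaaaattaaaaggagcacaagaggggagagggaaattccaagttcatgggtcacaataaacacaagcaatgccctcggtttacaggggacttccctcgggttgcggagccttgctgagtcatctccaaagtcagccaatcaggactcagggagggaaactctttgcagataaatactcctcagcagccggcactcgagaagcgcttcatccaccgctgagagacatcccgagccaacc
B2m: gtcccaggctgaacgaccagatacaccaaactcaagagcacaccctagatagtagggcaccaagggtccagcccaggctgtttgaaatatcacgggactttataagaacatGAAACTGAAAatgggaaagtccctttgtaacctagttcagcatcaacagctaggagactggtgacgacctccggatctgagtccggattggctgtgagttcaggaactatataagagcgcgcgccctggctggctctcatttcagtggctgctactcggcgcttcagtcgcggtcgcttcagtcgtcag
Epcam: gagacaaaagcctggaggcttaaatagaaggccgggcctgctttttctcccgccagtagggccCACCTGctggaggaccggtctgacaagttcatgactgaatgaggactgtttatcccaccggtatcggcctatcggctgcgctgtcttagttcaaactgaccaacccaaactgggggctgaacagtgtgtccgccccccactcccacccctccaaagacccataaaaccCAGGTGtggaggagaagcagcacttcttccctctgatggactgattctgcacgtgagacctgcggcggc
Krt8: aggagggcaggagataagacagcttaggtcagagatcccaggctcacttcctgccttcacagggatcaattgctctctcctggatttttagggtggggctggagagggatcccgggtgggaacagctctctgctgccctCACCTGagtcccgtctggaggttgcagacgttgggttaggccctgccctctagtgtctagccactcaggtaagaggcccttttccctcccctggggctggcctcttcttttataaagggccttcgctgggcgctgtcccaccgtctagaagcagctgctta

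Both strands were searched, and the matched elements did not overlap in these 6 windows. Among all 32851 promoters of the RefSeq table, 8.3% held the gamma-activated site, 3.44% the response element and 20.2% the E-box. Interferon-inducible GTPases had 11 promoters in the table, for 10 genes, of which 6 held the gamma-activated site (54.5%), 9 the response element (81.8%) and 0 the E-box. For antiviral interferon-stimulated genes these numbers were 5, 10 and 4 of 19 promoters, and the response element share was 52.6%. Other lists had smaller shares of the response element. The gamma-activated site was not confined to interferon lists. It was held by 26.3% of the antiviral promoters, but also by 4 of 12 milk and secretory protein promoters (33.3%) and 3 of 10 T and NK marker promoters (30%). The shares of gamma-activated site and response element were 23.5% and 17.6% for receptor, JAK-STAT and IRF genes and 9.52% and 23.8% for MHC class I. They were 11.1% and 11.1% for MHC class II, 9.09% and 18.2% for T cell chemokines and ligands, and 5.26% and 0% for NF-kB genes. Epithelial adhesion and identity genes had 19 promoters, for 13 genes, of which 15 held the E-box (78.9%), and 5 of 6 keratin promoters held it (83.3%). The E-box was added to the search after the expression values had been seen. A match describes the letters in the window and does not show that a factor bound there.

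Across 17069 genes tested, 3876 (22.7%) were called higher in DCC IFN-gamma and 3272 (19.2%) lower, 41.9% in all, at a Benjamini-Hochberg adjusted p under 0.05 in edgeR's quasi-likelihood test. At least a 2-fold difference was called for 2745 genes upward and 2422 downward, and at least a 16-fold difference for 950 and 782. The median log2 fold change of all tested genes was -0.18. Upper quartile scaling moved that median to -0.32 and the share of calls that were upward from 54.2% to 48.1%, and a fit of only these 2 groups gave 49.5%. Both DCC IFN-gamma libraries lay above both lesion libraries for 6050 genes (35.4%) and below both for 5881 (34.5%). With the same model, untreated DCC against the lesion gave 3253 (19.1%) and 3188 (18.7%) calls, 37.7% in all, and DCC IFN-gamma against untreated DCC gave 2148 (12.6%) and 1508 (8.83%), 21.4% in all. A list with close to 22.7% of its members called higher, or 19.2% lower, does not stand out from all genes in that direction. These 3 comparisons share libraries, so their values are set side by side and no overlap is drawn from them.

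**Figure D1:**
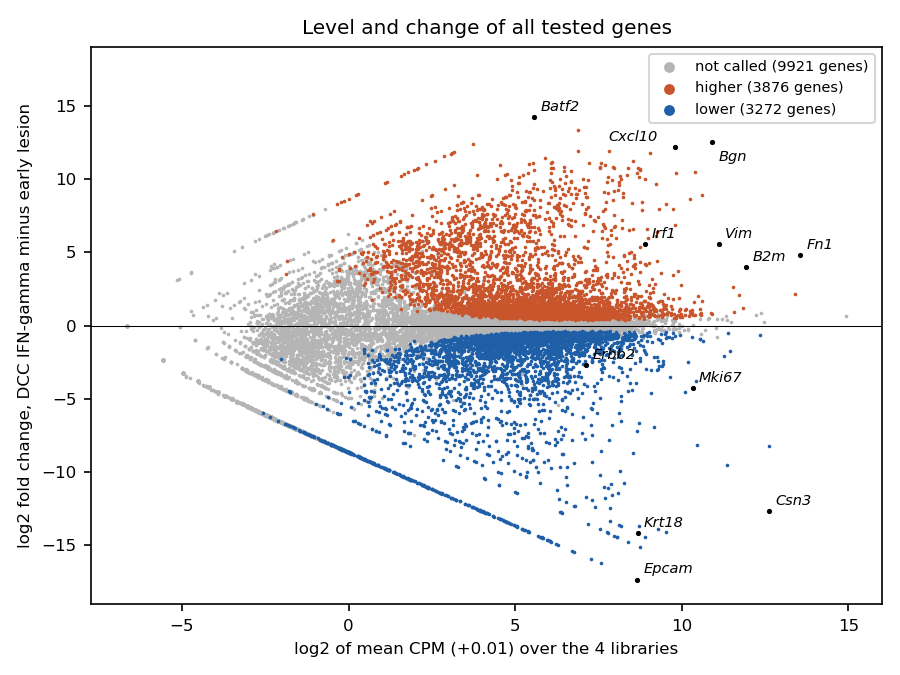
Log2 fold change of DCC IFN-gamma over early lesion (vertical axis) against log2 of the mean CPM + 0.01 of the 4 libraries (horizontal axis), 1 point per tested gene, orange where called higher, blue where called lower and grey where not called. Black points name genes, with Epcam at the bottom, Batf2, Bgn and Cxcl10 at the top and Erbb2 at -2.71; fold changes of genes without a count in a group, such as Epcam and Batf2, depend on the prior count of the fit.

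Among called genes with at least 10 CPM in the higher group, the 10 largest increases were Batf2, C1qb, Bgn, H2-Aa, Cxcl10, C1qc, Mmp13, Tyrobp, Ly6a and Wfdc17. They comprise interferon-induced genes (Batf2, Cxcl10, H2-Aa), genes best known from macrophages (C1qb, C1qc, Tyrobp) and stromal matrix genes (Bgn, Mmp13). Batf2 was at 75.99 and 114 CPM in DCC IFN-gamma and had no count in either lesion library, at least 828-fold higher. The 10 largest decreases were Epcam, Cldn3, Palmd, Pla2g7, Wfdc18, Gpx2, Cldn7, Plekhb1, Elf5 and Esrp1. Epcam was at 836 and 794 CPM in the lesion and had no count in either DCC IFN-gamma library, at least 6935-fold lower. Genes with such a switch were numerous: 371 had at least 10 CPM in both DCC IFN-gamma libraries and at most 1 CPM in both lesion libraries, and 314 showed the reverse. Of those 371, 204 also had at least 10 CPM in both untreated DCC libraries and 27 at most 1 CPM in both. Among the 314, 1 had at least 10 CPM in both untreated libraries and 153 at most 1 CPM in both. Against these stood 7315 genes with at least 10 CPM in all 4 libraries.

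Genes of the interferon-gamma pathway were higher in treated DCC than in the lesion. Of 20 receptor, JAK-STAT and IRF genes, 15 were called higher and 0 lower, with a median log2 fold change of 3.44. The same list had a median of -0.46 in untreated DCC against the lesion, with 5 called higher and 6 lower, and of 2.53 in treated against untreated DCC, with 15 called higher. Of the receptor chains, Ifngr1 was at 42.996 and 30.99 CPM in DCC IFN-gamma and 30.96 and 30.6 CPM in the lesion (log2 0.26 ± 0.21, adjusted p = 0.328), which was not called, and Ifngr2 was at 70.5 and 79.05 against 31.1 and 28.01 CPM (log2 1.34 ± 0.18). Irf1, a transcription factor made early in the response, was at 865 and 1018 CPM in DCC IFN-gamma against 20.9 and 19.7 CPM in the lesion and 10.8 and 16.6 CPM in untreated DCC, a log2 fold change of 5.53 ± 0.25 over the lesion (adjusted p = 7.65e-08). For Irf1 both treated libraries lay above all 4 lesion and untreated libraries. Leaving out DCC IFN-gamma replicate 2 gave 1 member of the list called lower.

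A feedback inhibitor of the pathway, the gene Usp18 and a co-activator rose as well. Socs1, which blocks the kinases, was at 70.7 and 99.3 CPM in DCC IFN-gamma, 0.795 and 1.25 CPM in the lesion and 24.7 and 22.5 CPM in untreated DCC (log2 6.40 ± 0.54 over the lesion), so untreated DCC already lay above the lesion. Usp18, an interferon-induced gene, was at 302 and 104 against 1.53 and 2.14 CPM (log2 6.81 ± 0.80). Nlrc5, the co-activator of MHC class I genes, was at 128 and 127 against 0.8899 and 1.61 CPM (log2 6.71 ± 0.30). Ciita, the co-activator of MHC class II genes, was at 7.51 and 8.13 against 1.56 and 2.63 CPM and was not called (adjusted p = 0.0992). It is named here after its values were seen.

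Interferon-inducible GTPases, which attack vacuoles that hold pathogens, rose without exception. All 16 tested members were called higher (22.7% of all genes were), with log2 fold changes from 4.6 to 11.12 and a median of 8.23. Their summed level was 12200 and 12900 CPM in DCC IFN-gamma, 89.7 and 81.7 CPM in the lesion, and 124 and 137 CPM in untreated DCC. Gbp4, a guanylate-binding protein, was at 1597 and 2066 CPM against 1.05 and 1.69 CPM (log2 10.41 ± 0.37), and Gbp10 at 208 and 314 against 0 and 0.5798 CPM (log2 10.01 ± 0.97). Tgtp1 and Tgtp2, near-identical genes between which reads cannot be divided with certainty, were at 397 and 427 and at 365 and 402 CPM, against 0.191 and 0.223 and 0.127 and 0.223 CPM in the lesion. Igtp, whose promoter is printed above, was at 1379.5 and 1151 CPM against 5.02 and 4.996 CPM (log2 7.98 ± 0.43) and had 2.496 and 2.77 CPM in untreated DCC.

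The listed antiviral interferon-stimulated genes were all called higher too, 24 of 24, with a median of 5.58 and a range from 2.21 to 9.59. With the replicate number as a block 23 were called higher, and the median ran from 5.02 to 6.12 when libraries were left out. In untreated DCC against the lesion 0 of them were called higher and 6 lower, with a median of -0.87. Ifit3, which binds viral RNA complexes, was at 759.9 and 340.3 CPM in DCC IFN-gamma and 0.667 and 0.758 CPM in the lesion (log2 9.59 ± 0.64). Ifit1 stood at 1294 and 488 against 3.31 and 4.37 CPM (log2 7.87 ± 0.62), and Mx2, a dynamin-like GTPase, at 620.1 and 201 against 1.05 and 2.45 CPM (log2 7.92 ± 0.85). In 23 of 24 members replicate 1 of DCC IFN-gamma was the higher library, with a median log2 difference of 1.13 between the replicates. The interferon-inducible GTPases split evenly, 8 of 16, with a median of -0.02. Both treated libraries lay above both lesion libraries in all 24 listed antiviral genes and all 16 GTPases. Ifitm3, an antiviral gene outside the list, did not share this and was chosen after its values were seen. It was at 529 and 418.6 RPKM (CPM per kilobase of exon) in DCC IFN-gamma, below 680.1 and 609.2 RPKM in the lesion. Untreated DCC had 34.03 and 34.11 RPKM of Ifitm3.

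**Figure D2:**
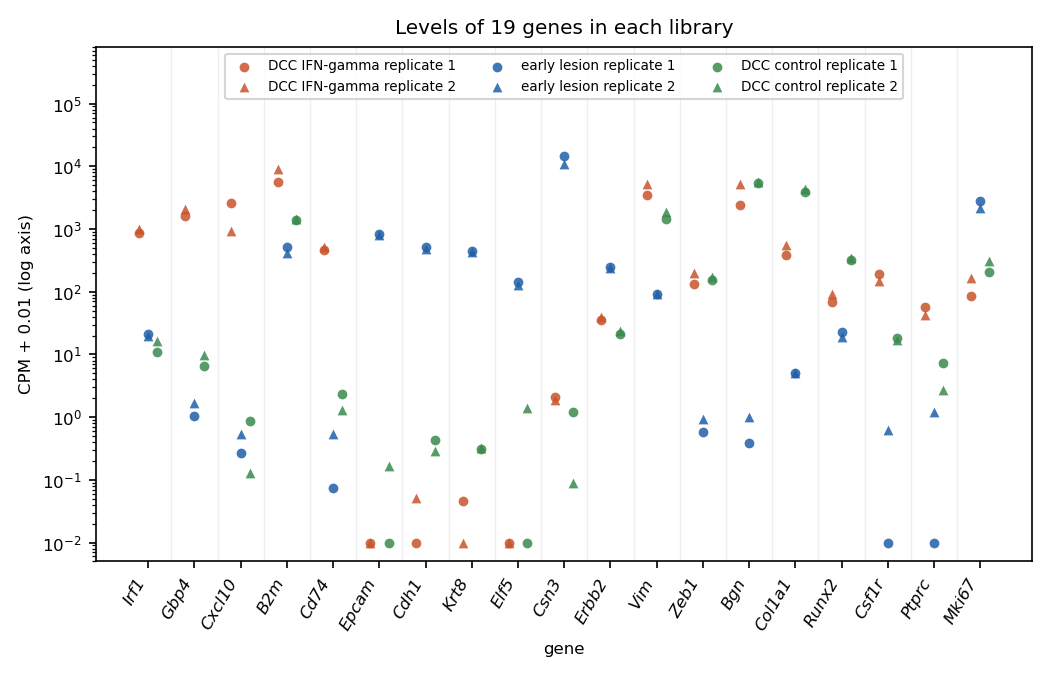
CPM + 0.01 (log axis) of 19 genes in each DCC IFN-gamma (orange), early lesion (blue) and DCC control (green) library, with circles for replicate 1 and triangles for replicate 2. Irf1 and Cxcl10 are highest in treated DCC, Epcam, Krt8 and Csn3 in the lesion, and Zeb1, Bgn and Col1a1 are above the lesion in both DCC groups; points at the lowest level have no count.

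MHC class I presentation, by which cells show peptides of their own proteins to CD8 T cells, was higher in most of its members. Of 18 tested members 16 were called higher and 0 lower, with a median of 3.9. The same list had a median of 0.31 in untreated DCC against the lesion. With DCC IFN-gamma replicate 2 left out, 2 members were called lower. B2m, the light chain of every class I molecule, was at 5668 and 9007 CPM in DCC IFN-gamma against 522 and 420.3 CPM in the lesion and 1377 and 1458 CPM in untreated DCC (log2 3.96 ± 0.27 over the lesion). Per length of transcript B2m had rank 2 among 14997 protein-coding messages of treated DCC, at 8530 RPKM (CPM per kilobase of exon), and rank 37 in the lesion, at 548 RPKM. The heavy chains H2-K1 and H2-D1 were at 807 and 1147 and 394 and 462 CPM against 56.3 and 46.9 and 9.34 and 9.63 CPM. Among the immunoproteasome and transporter genes, which cut and carry the peptides, Psmb9 was at 83.6 and 119.7 against 0.8899 and 1.16 CPM (log2 6.64 ± 0.47), Psmb8 at 85.3 and 98.5 against 1.303 and 2.05 CPM (log2 5.80 ± 0.31) and Tap1 at 275 and 302 against 5.21 and 5.397 CPM (log2 5.76 ± 0.18). The 2 members not called were Calr and Pdia3, chaperones of the endoplasmic reticulum, and Pdia3 was at 634 and 1065 CPM in treated DCC against 1052 and 906 CPM in the lesion.

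MHC class II presentation, which serves CD4 T cells, was close to the floor in the lesion and well above it in treated DCC. Of 9 tested members 8 were called higher, with a median of 9.4, or 7.86 with genes that had no lesion count at their lower limit. Without early lesion replicate 2 the median was 12.4. Their summed level was 796 and 877 CPM in DCC IFN-gamma, 2.51 and 4.5 CPM in the lesion, and 36 and 38.3 CPM in untreated DCC. Cd74, the invariant chain, was at 464 and 512 CPM against 0.0636 and 0.535 CPM (log2 10.82 ± 0.56). H2-Aa was at 24.9 and 28.5 CPM with no count in the lesion or in untreated DCC, at least 233-fold higher than the lesion, and H2-Ab1 at 43.99 and 76.8 against 0 and 0.178 CPM. Macrophages can express these genes, and macrophage markers moved in the same direction. Of 15 tested markers of macrophages and monocytes 12 were called higher in DCC IFN-gamma, and their summed level was 2340 and 1730 CPM there, 103 and 111 CPM in the lesion and 155 and 157 CPM in untreated DCC. Their part in the class II result was not tested. In bulk samples, more cells of a type and more RNA per cell cannot be told apart.

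Chemokines that recruit T cells and monocytes, and the ligands that T cells read, were for the most part higher in treated DCC. Of 20 tested members 15 were called higher and 0 lower, with a median of 4.9, against 3 higher and 3 lower in untreated DCC. Cxcl10, a ligand of Cxcr3 on T cells, was at 2635 and 922 CPM in DCC IFN-gamma, 0.254 and 0.535 CPM in the lesion and 0.852 and 0.119 CPM in untreated DCC (log2 12.19 ± 1.01 over the lesion, adjusted p = 0.000129). Cxcl11, which binds the same receptor, was at 166 and 62.3 against 0.0636 and 0.357 CPM (log2 9.20 ± 0.80). Ccl2 and Ccl7, monocyte attractants, were at 256 and 338 and 153 and 259.8 CPM against 0.0318 and 0.268 and 0 and 0.312 CPM. For both of these, untreated DCC lay between, at 7.49 and 3.41 and 19.1 and 16.6 CPM. Cd274 encodes the checkpoint ligand PD-L1. It was at 603 and 426 CPM in DCC IFN-gamma, 43.5 and 13.4 CPM in untreated DCC and 1.49 and 15.3 CPM in the lesion, where the replicates lay about 10-fold apart. Its log2 fold change was 5.97 ± 1.40, and edgeR no longer called it once DCC IFN-gamma replicate 1 (5.71, adjusted p = 0.115) or 2 (6.18, adjusted p = 0.0969) was left out, once early lesion replicate 1 was (5.07, adjusted p = 0.0549) and with the replicate number as a block (6.25, adjusted p = 0.076). The list had 11 to 16 members called higher when single libraries were left out. Its median was 7.9 without early lesion replicate 2.

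Cell death genes gave a mixed picture. Of 22 members 9 were called higher, 3 lower and 10 not called, with a median of 0.76. Casp4, a sensor caspase of pyroptosis, was at 107 and 83.97 against 6.29 and 4.73 CPM (log2 4.11 ± 0.24), and the death receptor Fas at 15.7 and 16.8 against 1.65 and 1.92 CPM (log2 3.18 ± 0.51). Nlrp3, an inflammasome sensor, was at 7.29 and 6.799 against 0 and 0.312 CPM (log2 5.54 ± 1.44). Untreated DCC had 3 members called higher and 11 lower than the lesion, and treated DCC 14 called higher than untreated DCC. Mlkl, the executor of necroptosis, named after its values were seen, was at 1.64 and 1.19 CPM in untreated DCC, 102 and 65.4 CPM in treated DCC and 69.6 and 63.1 CPM in the lesion, and was not called between treated DCC and the lesion (adjusted p = 0.248).

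Inflammatory genes under NF-kB control were higher in 12 of 19 members and lower in 1, with a median of 1.7. Ptgs2, the inducible prostaglandin synthase, was at 1354 and 4052 CPM in DCC IFN-gamma, 1047 and 948 CPM in untreated DCC and 1.59 and 2.23 CPM in the lesion (log2 10.48 ± 0.86). Tnf was at 18.5 and 18.4 against 0.159 and 0.446 CPM (log2 5.96 ± 1.12) and the neutrophil chemokine Cxcl2 at 5.901 and 14.3 against 0 and 0.268 CPM (log2 6.31 ± 1.20). Csf1, the macrophage growth factor, was at 1284 and 1067 CPM against 60.5 and 52.99 CPM (log2 4.37 ± 0.21), and untreated DCC had 1192 and 1261 CPM. Csf3, the neutrophil growth factor, went the other way, with 28.7 and 29.8 CPM in the lesion and no count in treated DCC, at least 249-fold lower. Leaving out DCC IFN-gamma replicate 2 gave 2 members called lower.

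Of 10 complement genes 5 were called higher and 2 lower, with a median of 4.57, and the lower count was near the 19.2% of all tested genes. C4b, of the classical pathway, was at 178 and 382 CPM in DCC IFN-gamma against 0.3496 and 0.981 CPM in the lesion (log2 8.79 ± 0.61) and C1ra at 62.9 and 235 against 0.222 and 0.981 CPM (log2 8.05 ± 0.94), and untreated DCC had 117 and 120.5 and 44.98 and 57.2 CPM of these. Cfb was at 23.6 and 50.3 against 0.191 and 0.937 CPM (log2 6.10 ± 0.77). Cd55 and Cd59a, surface inhibitors of complement, were lower. Cd55 lost its call without any 1 of the 4 libraries (adjusted p from 0.0546 to 0.278), which left 1 member called lower. The list's median was 8.01 without early lesion replicate 2.

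The epithelial programme of the lesion was at or near the floor in treated DCC. All 25 epithelial adhesion and identity genes were called lower (19.2% of all genes were), with a median of -10.88, or -7.88 with the 10 genes that had no count in treated DCC at their limit. Their summed level was 4540 and 4280 CPM in the lesion and 16.6 and 15.6 CPM in DCC IFN-gamma. Untreated DCC, at 29.5 and 21 CPM, had 24 of the 25 called lower than the lesion. Cdh1, which encodes E-cadherin, was at 521 and 485 CPM in the lesion and 0 and 0.0417 CPM in DCC IFN-gamma, where it had 1 count in all, a count ratio of 25924, with a 95% counting interval of 4653 to 1023940. The tight junction genes Cldn3 and Cldn7 were at 311 and 310.4 and 145 and 152 CPM in the lesion and had no count in DCC IFN-gamma, at least 2643-fold and at least 1265-fold lower. Esrp1, a splicing factor of epithelial cells, was at 138 and 128 CPM and likewise had no count. Jup, a junction protein that other cell types also use, kept the highest level of the list in DCC IFN-gamma, at 4.69 and 6.51 CPM against 812 and 805 CPM (log2 -7.18 ± 0.24). It was chosen after its values were seen.

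Keratins of simple epithelium went with them. Of 7 tested keratins 5 were called lower and 0 higher, with a median of -11.74, or -7.17 with limits. Krt8 and its partner Krt18 were at 439.5 and 428 and 849 and 784 CPM in the lesion. Krt8 had 1 count and Krt18 2 counts in the DCC IFN-gamma libraries together, count ratios of 22282, with a 95% counting interval of 3999 to 880083 for Krt8 and of 21068, with a 95% counting interval of 5832 to 173966 for Krt18. Krt7 was at 537 and 529 CPM against 0 and 0.0417 CPM. Summed over the list, 1850 and 1760 CPM in the lesion stood against 0.403 and 0.459 CPM in DCC IFN-gamma and 2.68 and 1.74 CPM in untreated DCC. Epcam and keratins are the markers by which epithelial cancer cells are usually found in bone marrow, and in libraries labelled disseminated cancer cells they were at or near 0.

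Transcription factors and hormone receptors of the mammary gland were lower in 13 of 21 members and higher in 3, with a median of -2.17, or -1.93 with limits. Elf5, the regulator of alveolar cells, was at 143 and 127 CPM in the lesion with no count in DCC IFN-gamma, at least 1147-fold lower, and Tfap2b at 72.6 and 59.9 CPM with no count, at least 564-fold lower. Ehf, an ETS factor of epithelia, was at 513 and 443 against 0.10996 and 0.209 CPM (log2 -11.53 ± 0.27). Sox10, known from mammary progenitors and from neural crest, was at 857 and 823 CPM against 0 and 0.125 CPM, a count ratio of 14402, with a 95% counting interval of 4928 to 69835. Among those called higher, Esr1, the oestrogen receptor, was at 5.68 and 9.22 CPM in DCC IFN-gamma against 0.254 and 0.937 CPM in the lesion (log2 3.67 ± 0.71). The list's median was -5.18 without DCC IFN-gamma replicate 1.

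Milk and secretory proteins were among the most abundant lesion messages and fell in treated DCC. Of 12 tested members 7 were called lower and 1 higher, with a median of -7.02, or -3.82 with limits. Csn3, kappa-casein, was at 14472 and 10828 CPM in the lesion and 2.09 and 1.84 CPM in DCC IFN-gamma (log2 -12.65 ± 0.72), and per length it had rank 3 among protein-coding messages of the lesion, at 3050 RPKM, and rank 10680 in DCC IFN-gamma. Lcn2, an iron-carrier binding protein, had rank 1 in the lesion at 4740 RPKM. It was at 13163 and 11719.9 CPM there and at 7.59 and 74.4 CPM in DCC IFN-gamma (log2 -8.25 ± 1.17), where the replicates lay about 10-fold apart. Wfdc18 was at 923 and 778 CPM against 0 and 0.0417 CPM, 1 count in all, and Ltf, lactoferrin, at 33.6 and 37.6 CPM with no count in DCC IFN-gamma, at least 302-fold lower. Plin2, a lipid droplet protein, was the member called higher, at 112 and 67.7 against 53.7 and 49.3 CPM (log2 0.80 ± 0.23). Leaving out DCC IFN-gamma replicate 1 ended that call (0.39, adjusted p = 0.142), as did fits without early lesion replicate 1 (0.87, adjusted p = 0.0573) and without early lesion replicate 2 (0.74, adjusted p = 0.102).

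The receptors Erbb2, Erbb3 and Egfr fell while some of their ligands rose. Of 12 members 6 were called lower and 3 higher, with a median of -2.84. The higher count was near the 22.7% of all tested genes. Erbb2 was at 35.01 and 39.002 CPM in DCC IFN-gamma, 21.2 and 23.3 CPM in untreated DCC and 245 and 238 CPM in the lesion (log2 -2.71 ± 0.15, adjusted p = 2.95e-07). How far reads of the rat transgene were counted on the mouse gene was not tested. Erbb3, the kinase-poor partner of Erbb2, was at 0.183 and 0.209 against 159 and 167 CPM (log2 -9.67 ± 0.23), and Grb7, the adaptor whose gene neighbours Erbb2, at 30.6 and 39.7 CPM in the lesion with no count in DCC IFN-gamma, at least 299-fold lower. The ligand Tgfa was lower as well, at 3.12 and 2.002 against 50.3 and 54.5 CPM (log2 -4.35 ± 0.29). Ereg, epiregulin, was the ligand with the largest increase, at 531 and 1091 CPM in DCC IFN-gamma and 112 and 104 CPM in untreated DCC against 0.286 and 0.981 CPM (log2 10.41 ± 0.95). Hbegf and Nrg1 were the other two ligands called higher, at 296 and 516 and 107 and 55.4 CPM against 78.8 and 73.1 and 8.36 and 10.04 CPM.

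In place of the epithelial programme both DCC groups carried a mesenchymal one. All 13 members of the list of mesenchymal markers and regulators were called higher in DCC IFN-gamma, with log2 fold changes from 2.08 to 8.44 and a median of 6.91. Untreated DCC had all 13 called higher too, with a median of 5.76, and the median of treated against untreated DCC was 0.04. Vim, vimentin, was at 3502 and 5217 CPM in DCC IFN-gamma, 1465 and 1903 CPM in untreated DCC and 92.8 and 91.5 CPM in the lesion (log2 5.56 ± 0.28). Zeb1, a repressor of Cdh1, was at 134 and 199 against 0.572 and 0.937 CPM (log2 7.82 ± 0.33). S100a4, a calcium-binding protein of motile cells, was at 322 and 524 against 1.56 and 0.803 CPM (log2 8.44 ± 0.80), and Cdh11, a mesenchymal cadherin, at 219 and 149 against 0.3496 and 1.03 CPM (log2 8.14 ± 0.51). Twist2 stood at 18.2 and 25.4 against 0 and 0.178 CPM. Cdh2, N-cadherin, had the smallest difference of the list, at 114 and 108 against 28.1 and 24.3 CPM.

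Matrix genes were higher than in the lesion, and 11 of them lower than in untreated DCC. Of 24 collagens and fibrillar matrix genes 20 were called higher and 2 lower, with a median of 6.5. The median of untreated DCC against the lesion was 8.58, and in treated against untreated DCC 0 were called higher and 11 lower, with a median of -1.32. Bgn, biglycan, was at 2438 and 5301 CPM in DCC IFN-gamma and 5497 and 5533 CPM in untreated DCC against 0.381 and 0.981 CPM in the lesion (log2 12.54 ± 0.62). Sparc, which binds collagen, was at 488 and 1161 against 0.413 and 0.535 CPM (log2 10.77 ± 0.57), and Col6a1 at 313 and 1012 against 0.0636 and 0.803 CPM (log2 10.73 ± 1.19). Col1a1, the main chain of type I collagen, was at 379 and 555 CPM in DCC IFN-gamma, 3899.9 and 4274 CPM in untreated DCC and 5.12 and 4.996 CPM in the lesion (log2 6.53 ± 0.44). DCC IFN-gamma replicate 2 was the higher library in 23 of 24 members, with a median log2 difference of -1.03 for replicate 1 minus replicate 2. Col11a1, a minor fibrillar collagen, was lower, at 86.5 and 266 against 1248 and 1111 CPM (log2 -2.74 ± 0.51), and untreated DCC had 1451 and 1638 CPM. Without DCC IFN-gamma replicate 2 the list had 17 called higher and 4 lower. Without early lesion replicate 2 its median was 10.26.

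Of 16 matrix proteases and inhibitors 12 were called higher and 0 lower, with a median of 3.44. Mmp13, a collagenase, was at 217 and 687 CPM against 0.0318 and 0.223 CPM (log2 11.91 ± 1.01), and the inhibitor Timp1 at 299 and 819 against 0.604 and 0.624 CPM (log2 9.82 ± 1.01). Timp2 was at 1188 and 1181 against 20.5 and 14.1 CPM (log2 6.09 ± 0.24). Proteases and their inhibitors thus both rose. Leaving out DCC IFN-gamma replicate 2 gave 1 member called lower.

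Of 22 basement membrane and integrin genes 4 were called higher, near the 22.7% of all tested genes, and 9 lower, with a median of -1.39. That median was -0.86 without DCC IFN-gamma replicate 1. The laminin-binding integrin chain Itgb4 was at 1.796 and 6.97 against 490.1 and 466 CPM (log2 -6.78 ± 0.64), the laminin chain Lama5 at 3.74 and 4.71 against 103 and 122 CPM (log2 -4.73 ± 0.22) and Itgb6 at 0.293 and 0 against 27.7 and 24.3 CPM (log2 -7.36 ± 0.71). Itga8 fell most, from 580.1 and 512 CPM in the lesion to 0.147 and 0.2503 CPM (log2 -11.41 ± 0.29). Itga5, the chain of the fibronectin receptor, rose, at 196 and 345 against 0.159 and 0.937 CPM (log2 9.07 ± 0.62). Fibronectin itself, Fn1, had rank 9 per length in DCC IFN-gamma at 1980 RPKM and rank 486 in the lesion at 72.2 RPKM, and with 13467 and 32845 CPM its replicates lay more than 2-fold apart.

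Several other cell types could contribute to cells grown out of bone marrow, and their markers were counted in the same way. Of 13 tested fibroblast and stromal markers 8 were called higher and 1 lower, with a median of 2.49. Ly6a, also called Sca-1, was at 755 and 1373 CPM in DCC IFN-gamma, 17.04 and 23.01 CPM in untreated DCC and 0.127 and 0.535 CPM in the lesion (log2 11.76 ± 0.59), and it is known to respond to interferon. Pdgfrb, a receptor of mesenchymal cells, was at 107 and 127 against 0.0636 and 1.65 CPM (log2 7.24 ± 0.87), and Islr at 19.8 and 112 against 0 and 0.268 CPM (log2 9.12 ± 1.40). Dpt, Pi16 and Mfap4, markers of resident fibroblasts, stayed below 1 CPM in both DCC IFN-gamma libraries. Without early lesion replicate 2 the list's median was 5.92, and without replicate 1 of that group 0 members were called lower.

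Osteoblast and cartilage markers were higher in 6 of 10 members, with a median of 2.92, against 4.64 in untreated DCC. Runx2, the regulator of bone formation, was at 67.8 and 91.9 CPM in DCC IFN-gamma, 325 and 346 CPM in untreated DCC and 22.9 and 18.7 CPM in the lesion (log2 1.94 ± 0.19). Sp7, which acts after Runx2, was at 13.9 and 51.5 against 0 and 0.714 CPM (log2 6.71 ± 1.14), and Alpl, the mineralising phosphatase, at 43.5 and 79.5 against 6.71 and 4.37 CPM (log2 3.46 ± 0.32) with 1382 and 1476 CPM in untreated DCC. By mean level per length Spp1, osteopontin, had rank 1 among protein-coding messages of DCC IFN-gamma, at 10600 RPKM. Its replicates were at 6020 and 15100 RPKM, and in replicate 1 B2m lay above it, at 6591 RPKM. Spp1 also had rank 1 in untreated DCC, at 9800 RPKM, and had rank 4 in the lesion at 2410 RPKM. Acan and Ibsp, markers of cartilage and of mature bone, were at 0 and 0 and 7.29 and 4.34 CPM in DCC IFN-gamma.

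Genes of blood cells were higher in treated DCC. Of 9 pan-leukocyte genes 8 were called higher than in the lesion and 1 lower, with a median of 6.65. Treated against untreated DCC had 4 called higher. Without either DCC IFN-gamma replicate the number called higher was 5. Without early lesion replicate 2 the median was 12.04. Ptprc, which encodes CD45, was at 56.4 and 42.3 CPM in DCC IFN-gamma, 7.24 and 2.69 CPM in untreated DCC and 0 and 1.204 CPM in the lesion (log2 6.48 ± 1.22), but was not called when DCC IFN-gamma replicate 1 (6.23, adjusted p = 0.0905) or 2 (6.63, adjusted p = 0.0747) was left out. Laptm5, a lysosomal protein of blood cells, was at 169.8 and 156 against 0 and 0.357 CPM (log2 10.02 ± 0.65), and Cd52 at 55.7 and 44.3 against 0 and 0.268 CPM (log2 8.70 ± 0.79). Lcp1, an actin bundler that tumour cells also use, was the member called lower, at 112 and 105 against 902 and 813 CPM (log2 -2.98 ± 0.18), and it made up most of the list's summed level in the lesion.

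Macrophage and monocyte markers had 12 of 15 called higher, with a median of 9.1, or 8.29 with limits, and 11.86 without early lesion replicate 2. Csf1r, the receptor for Csf1, was at 193 and 147 CPM in DCC IFN-gamma, 18.5 and 16.9 CPM in untreated DCC and 0 and 0.624 CPM in the lesion (log2 9.28 ± 0.78). Mpeg1, a pore-forming protein of macrophages, was at 673 and 482 against 0.286 and 0.937 CPM (log2 9.97 ± 0.47). C1qb and C1qc, chains of complement C1q, were at 282 and 194 and 277 and 198 CPM in DCC IFN-gamma with 1 and 3 lesion counts in all, and at 13.4 and 14.5 and 12.4 and 14.6 CPM in untreated DCC. Tyrobp was at 21.3 and 14.8 CPM with no lesion count, at least 157-fold higher. In treated against untreated DCC 13 of the 15 were called higher, with a median of 3.27. Cd14 was called lower than in the lesion, at 43.1 and 65.7 against 94.1 and 98.1 CPM (log2 -0.82 ± 0.23), a call that ended on leaving out DCC IFN-gamma replicate 1 (-0.55, adjusted p = 0.052) or early lesion replicate 2 (-0.79, adjusted p = 0.063). Replicate 1 of DCC IFN-gamma was the higher library in 13 of these 15 genes and in 8 of the 9 pan-leukocyte genes, and how far this moved with the higher antiviral genes of that replicate was not tested.

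Markers of most other lineages were low. Of 9 tested endothelial markers 0 were called, and their summed level was 5.1 and 3.71 CPM in DCC IFN-gamma and 0.54 and 5.26 CPM in the lesion. T and NK markers summed to 0.0733 and 0.0834 CPM in DCC IFN-gamma, and B and plasma cell markers to 1.94 and 0.334 CPM. Erythroid and megakaryocyte markers summed to 3.59 and 5.92 CPM, and skeletal muscle markers to 0.586 and 0.501 CPM. The erythroid median of -0.77 was 0 without early lesion replicate 2 and -5.24 without DCC IFN-gamma replicate 2. Among neutrophil and mast cell markers Kit was called lower, at 172 and 171 CPM in the lesion and 1 count in all in DCC IFN-gamma, and luminal progenitors of the mammary gland are known to carry Kit. Adipocyte markers were higher in 4 of 8 tested members (2 without either DCC IFN-gamma replicate), among them Fabp4 at 2.53 and 12.9 CPM with no lesion count, at least 67.5-fold higher, and Pparg at 9.42 and 6.09 against 0.5403 and 0.357 CPM (log2 4.08 ± 0.61), while Adipoq was at 0.10996 and 0.125 CPM. Contractile genes had 3 of 12 called higher, near the 22.7% of all tested genes, and 4 lower. Tpm2 was at 60.96 and 148 against 0.604 and 0.5798 CPM (log2 7.44 ± 0.58), Acta2 at 6.12 and 4.34 against 0.191 and 0.134 CPM (log2 4.94 ± 0.50) and Lmod1 at 0.733 and 0.834 against 7.37 and 5.26 CPM (log2 -3.01 ± 0.49). Glial markers had S100b higher (2 markers without DCC IFN-gamma replicate 1), at 11.4 and 37.9 against 0.3496 and 0.535 CPM, and Mbp lower, at 2.68 and 2.63 against 28.2 and 28.4 CPM.

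**Figure D3:**
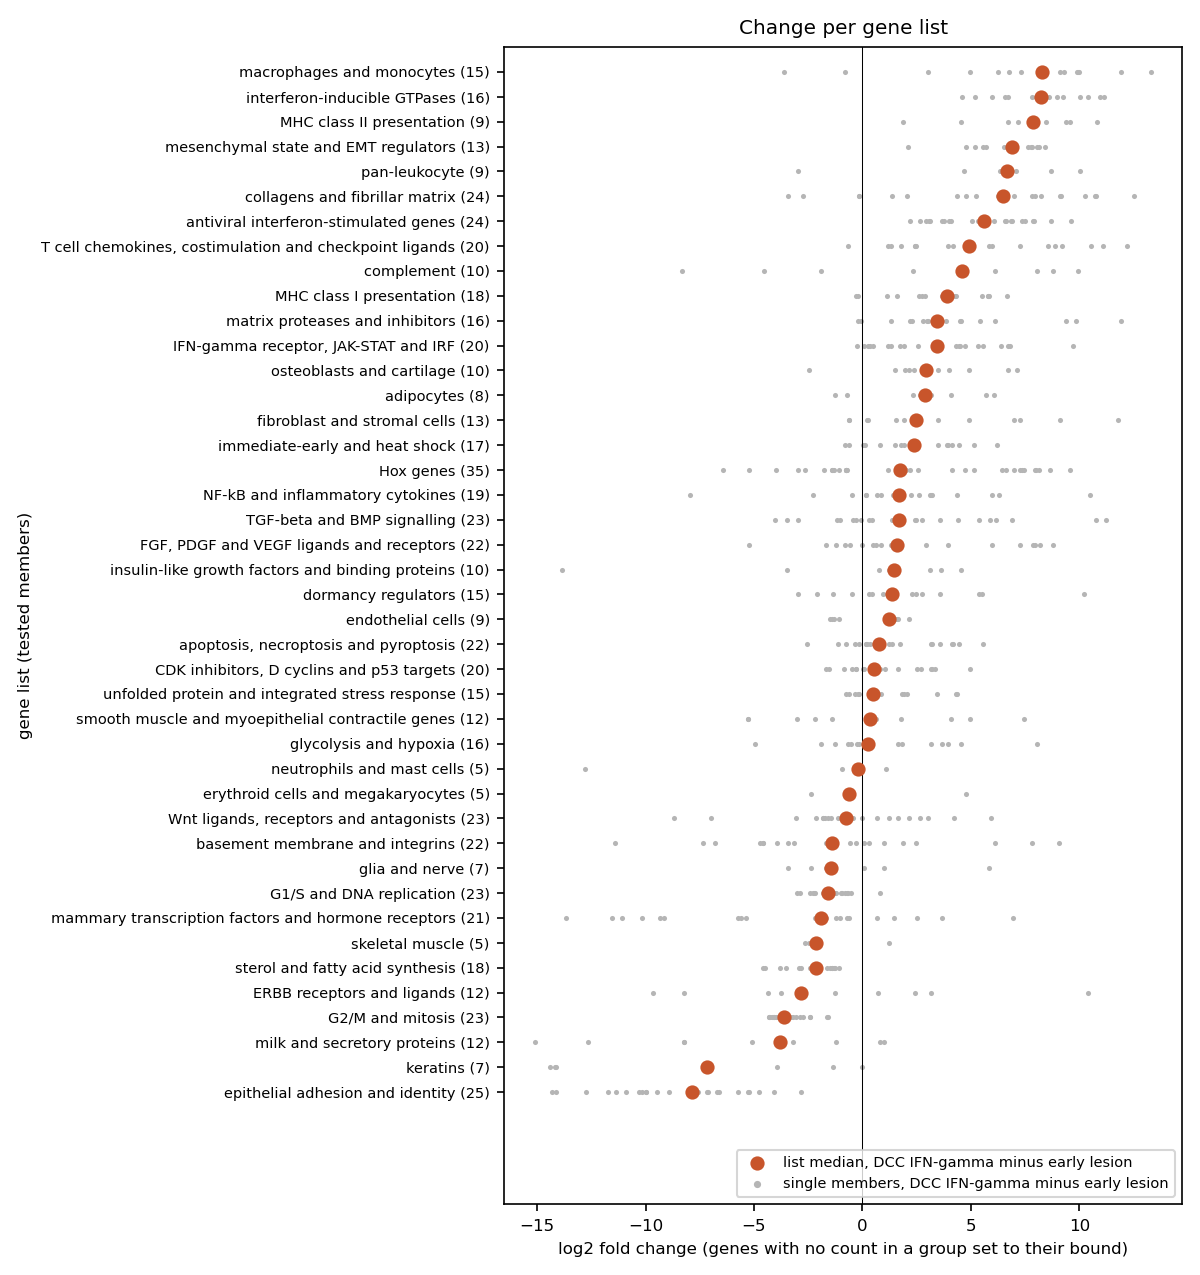
Log2 fold change of DCC IFN-gamma over early lesion for every tested member of the gene lists with at least 3 tested members, 1 line of points per list, in grey, with the list median in orange and, in brackets, the number of tested members. Genes without a count in a group stand at their limit. Macrophage, GTPase and mesenchymal lists have their medians at 8.29, 8.23 and 6.91, and the epithelial and keratin lists at -7.88 and -7.17.

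Proliferation genes were lower in the treated DCC, with larger differences in mitotic than in replication genes. All 23 G2/M and mitosis genes were called lower, with a median of -3.62 and a range from -4.3 to -1.58. Of 23 G1/S and replication genes 20 were called lower and 1 higher, with a median of -1.59. Mki67, a nuclear protein of cycling cells, was at 85.4 and 166 CPM in DCC IFN-gamma, 209.9 and 313 CPM in untreated DCC and 2749.8 and 2135 CPM in the lesion (log2 -4.28 ± 0.38). The mitotic cyclins Ccnb1 and Ccnb2 were at 2.97 and 4.42 and 2.199 and 6.88 CPM against 73.5 and 70.96 and 93.1 and 84.9 CPM, and the spindle motor Kif11 at 6.01 and 6.97 against 121 and 115 CPM (log2 -4.19 ± 0.23). Cdc6, which loads the replicative helicase, was at 4.14 and 3.63 against 32.2 and 30.2 CPM (log2 -3.00 ± 0.46), and Tyms, which makes thymidylate, at 20.8 and 16.9 against 137 and 144 CPM (log2 -2.89 ± 0.27). In G2/M genes DCC IFN-gamma replicate 1 was the lower library in 23 of 23.

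Set beside untreated DCC, the 2 lists parted. The G1/S median was -2.63 in untreated DCC against the lesion, and in treated against untreated DCC 13 members were called higher and 1 lower, with a median of 1.04. For G2/M genes the median was -2.7 in untreated DCC, and in treated against untreated DCC 0 were called higher and 11 lower, with a median of -0.76. Mcm5, a helicase subunit, was at 7.61 and 6.89 CPM in untreated DCC, 27.4 and 20.3 CPM in treated DCC and 125 and 109.8 CPM in the lesion. By these medians treated DCC lay nearer to the lesion than untreated DCC did in G1/S genes and farther from it in G2/M genes. Cdt1, a licensing factor, was the single member called higher than the lesion, at 38.7 and 49.2 against 25.8 and 25.1 CPM (log2 0.79 ± 0.21), a call that ended without DCC IFN-gamma replicate 2 (0.56, adjusted p = 0.0631), without early lesion replicate 1 (0.81, adjusted p = 0.0603) and without early lesion replicate 2 (0.77, adjusted p = 0.0702).

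**Figure D4:**
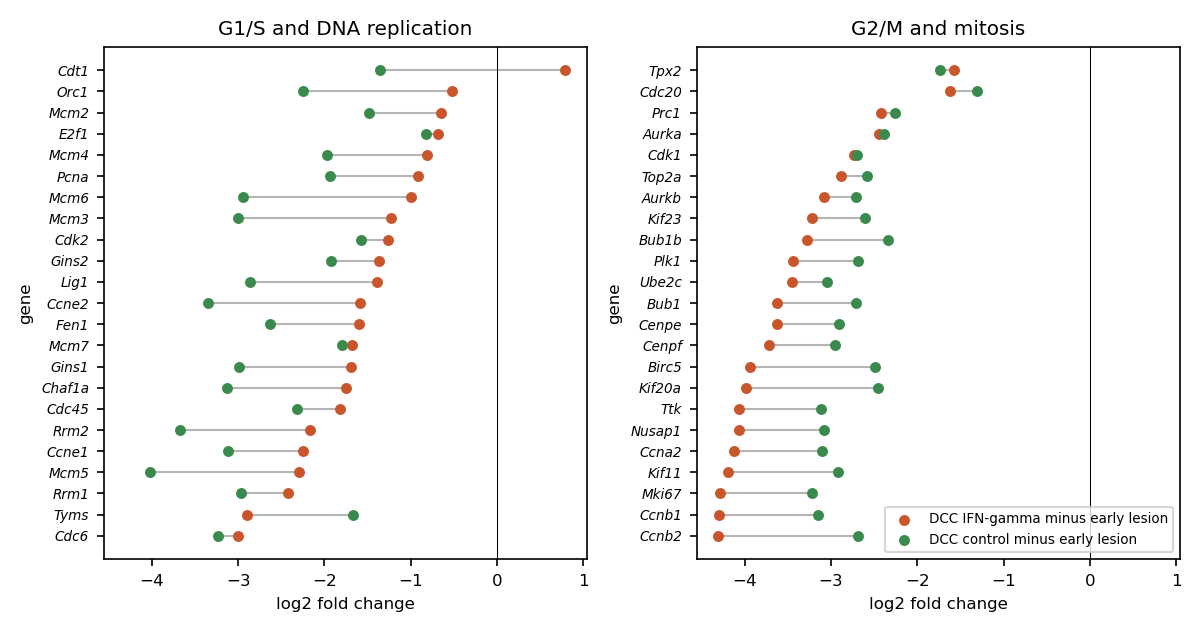
Log2 fold change over early lesion of G1/S genes (left) and G2/M genes (right), with DCC IFN-gamma in orange and DCC control in green, 1 line per gene and both against the same lesion libraries. Orange points lie to the right of green for most G1/S genes, with Tyms the exception, and to the left for most G2/M genes, with Tpx2 the exception.

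The list of CDK inhibitors and p53 targets also holds the D cyclins, which drive the cycle. Of 20 CDK inhibitors, D cyclins and p53 targets 8 were called higher, 2 lower and 10 not called, with a median of 0.55. Cdkn1a, which encodes p21 and is a target of p53, was at 382 and 345 CPM in DCC IFN-gamma, 186 and 174 CPM in untreated DCC and 65.5 and 60.04 CPM in the lesion (log2 2.53 ± 0.15, adjusted p = 5.26e-07). Ccnd2, cyclin D2 and so a driver of the cycle, had the largest increase of the list, at 641 and 681 against 22.3 and 19.8 CPM (log2 4.97 ± 0.18) and Sesn2, a stress sensor, was at 41.1 and 41.05 against 4.64 and 4.37 CPM (log2 3.19 ± 0.20). Cdkn1b, which encodes p27, was lower, at 21.7 and 45.6 against 108 and 111 CPM (log2 -1.70 ± 0.32). Cdkn2a, the locus of p16 and p19ARF, was at 29.3 and 28.6 CPM in DCC IFN-gamma, 21.9 and 14.97 CPM in untreated DCC and 16.9 and 16.1 CPM in the lesion (log2 0.81 ± 0.26). That call was lost under upper quartile scaling (0.68, adjusted p = 0.0681) and without each of the 4 libraries in turn, where the adjusted p values were 0.0613, 0.0581, 0.118 and 0.148. Gene-level counts do not separate the transcripts of p16 and p19ARF. The number called lower was 4 without DCC IFN-gamma replicate 2 and 1 without early lesion replicate 1.

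Genes that are discussed as regulators of dormancy in disseminated cells had 8 of 15 called higher and 3 lower, with a median of 1.37. Axl, a receptor of the TAM family, was at 584 and 544 CPM in DCC IFN-gamma, 109 and 119 CPM in untreated DCC and 0.0318 and 1.03 CPM in the lesion (log2 10.23 ± 0.77), and its ligand Gas6 at 27.9 and 44.3 against 6.74 and 8.34 CPM (log2 2.26 ± 0.39). Nr2f1, a nuclear receptor used as a dormancy marker, was at 37.8 and 45.6 against 0.795 and 1.03 CPM (log2 5.53 ± 0.24). Tgfb2, a ligand that holds disseminated cells quiescent in marrow models, was lower, at 19.2 and 10.6 against 125 and 107 CPM (log2 -2.96 ± 0.28), while Tgfb1 was higher, at 96.3 and 213 against 10.8 and 15.4 CPM (log2 3.56 ± 0.52). The 3 lower members were near the 19.2% of all tested genes called lower.

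In TGF-beta and BMP signalling 13 of 23 members were called higher and 5 lower, the latter near the 19.2% of all tested genes. Grem1, a secreted BMP antagonist, was at 606 and 876 CPM against 0.0636 and 0.624 CPM (log2 11.23 ± 0.72), and Bmp2, one of its ligands, at 435 and 567 against 0.127 and 0.491 CPM (log2 10.76 ± 0.42) with 38.96 and 35.9 CPM in untreated DCC. Inhba, a chain of activin, was at 181 and 204 against 1.78 and 1.43 CPM (log2 6.89 ± 0.25), and Inhbb, the alternative chain, at 8.91 and 9.01 against 150.01 and 144 CPM (log2 -4.03 ± 0.17). The activin chains thus moved in opposite directions. Id3, a BMP target, was at 64.7 and 98.3 against 1.398 and 0.847 CPM (log2 6.14 ± 0.31).

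Among 22 FGF, PDGF and VEGF genes 9 were called higher and 4 lower, the latter near the 19.2% of all tested genes. Fgf7 and Fgf10, stromal ligands that act on epithelium, were at 481 and 713 and 156 and 194 CPM against 1.62 and 1.07 and 0.3496 and 0.892 CPM. Fgf1 was lower, at 2.24 and 1.29 against 73.6 and 61.4 CPM (log2 -5.24 ± 0.29). Vegfa, the main angiogenic factor, was at 473 and 616 against 38.2 and 31.8 CPM (log2 3.96 ± 0.19). Among 10 insulin-like growth factor genes 4 were called higher and 2 lower, the lower count again near that 19.2%. Igfbp5, a binding protein of involuting gland, was at 1344 and 1138 CPM in the lesion and 0 and 0.167 CPM in DCC IFN-gamma (log2 -13.86 ± 0.70), whereas Igfbp7 was at 24.9 and 46.8 against 1.97 and 0.981 CPM (log2 4.56 ± 0.44).

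Of 23 Wnt pathway genes 3 were called higher and 8 lower, with a median of -1.11, or -0.77 with limits. Sfrp1, a secreted antagonist, was at 789 and 693 CPM in the lesion and 1.54 and 2.04 CPM in DCC IFN-gamma (log2 -8.69 ± 0.26), and the ligand Wnt5b at 64.8 and 59.7 against 0.5498 and 0.417 CPM (log2 -6.99 ± 0.53). The co-receptors Lrp5 and Lrp6 were at 59.8 and 117 and 114 and 121 CPM against 327 and 295 and 405 and 363 CPM. Wif1, a second antagonist, rose, at 6.34 and 5.88 against 0 and 0.223 CPM (log2 5.94 ± 0.63). Without early lesion replicate 2, 5 members were called higher and the median was -0.08.

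Of 35 tested Hox genes, which record position along the body, 14 were called higher and 6 lower, with a median of 1.71. All tested genes had 22.7% called higher and 19.2% lower, so the lower count was no larger than among genes at large. In treated against untreated DCC 0 were called higher and 1 lower. The higher genes came from the A, C and D clusters. Hoxc9 was at 42.2 and 36.4 CPM in DCC IFN-gamma and 38.5 and 31.4 CPM in untreated DCC against 0 and 0.223 CPM in the lesion (log2 8.63 ± 0.57), and Hoxd8 at 24.3 and 32.1 against 0.0318 and 0.178 CPM (log2 8.15 ± 0.49). Hoxc11 was at 15.3 and 20.5 CPM with 1 lesion count, a count ratio of 957, with a 95% counting interval of 172 to 37787. Hoxb2, an anterior gene, was lower, at 0.257 and 0 against 11.7 and 12.04 CPM (log2 -6.41 ± 1.18). Other lower genes, named after their values were seen, included Hoxb3, Hoxb4, Hoxa3 and Hoxa5. The median of the list was 7.04 without early lesion replicate 2, 0.89 without early lesion replicate 1 and 0.91 without DCC IFN-gamma replicate 1.

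Lipid synthesis was lower throughout. All 18 sterol and fatty acid genes were called lower, with a median of -2.14, and untreated DCC had 18 of 18 called lower with a median of -2.17. Scd1, which desaturates stearate, was at 57.95 and 118 CPM in DCC IFN-gamma, 92.3 and 119.6 CPM in untreated DCC and 2213 and 1954 CPM in the lesion (log2 -4.56 ± 0.34). Sqle, squalene epoxidase, was at 8.39 and 10.4 against 129 and 133 CPM (log2 -3.80 ± 0.29), and Scd2 at 76.2 and 185 against 1529 and 1447 CPM (log2 -3.51 ± 0.40). No DCC IFN-gamma library overlapped a lesion library in any of the 18.

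Glycolysis and hypoxia genes had 7 of 16 called higher and 4 lower, the latter near the 19.2% of all tested genes. The list's median of 0.26 turned to -0.2 without DCC IFN-gamma replicate 2. Slc16a3, a lactate exporter, was at 21.5 and 42.3 against 0 and 0.268 CPM (log2 8.06 ± 0.87), and Hk2, hexokinase 2, at 173 and 240.4 against 8.1997 and 9.59 CPM (log2 4.54 ± 0.22). Egln3, an oxygen sensor, was lower, at 3.26 and 4.71 against 113 and 135 CPM (log2 -4.97 ± 0.27). DCC IFN-gamma replicate 2 was the higher library in 16 of 16 members. Without DCC IFN-gamma replicate 1 the median was 0.58.

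Stress and immediate-early genes were higher in the treated DCC. Of 17 members 12 were called higher and 0 lower, with a median of 2.38, whereas untreated DCC had 5 called higher and 7 lower with a median of -0.17. Hspa1a and Hspa1b, near-identical heat shock genes whose reads cannot be divided with certainty, were at 181 and 749 and 664 and 1191 CPM in DCC IFN-gamma, 6.36 and 6.1998 and 54.8 and 50.98 CPM in the lesion and 2.8001 and 2.85 and 4.44 and 6.297 CPM in untreated DCC. Fosb was at 32.7 and 79.8 against 0.953 and 2.27 CPM (log2 5.15 ± 0.56). Fos was at 32.9 and 249.9 against 7.02 and 5.98 CPM (log2 4.44 ± 0.93), with replicates over 7-fold apart, and its call was lost without early lesion replicate 1 (4.57, adjusted p = 0.0895), without early lesion replicate 2 (4.33, adjusted p = 0.061) and with the replicate number as a block (4.21, adjusted p = 0.0586). With DCC IFN-gamma replicate 2 left out, 2 members of the list were called lower. Genes of the unfolded protein and integrated stress responses had 8 of 15 called higher and 1 lower (4 lower without DCC IFN-gamma replicate 2). Chac1 was at 38.05 and 59.6 against 2.45 and 2.32 CPM (log2 4.35 ± 0.31) and Ddit3, which encodes CHOP, at 162 and 162 against 9.25 and 7.18 CPM (log2 4.29 ± 0.19), both below untreated DCC at 162 and 154 and 367 and 330.3 CPM.

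Levels per length show how far interferon and mesenchymal genes rose among all messages. Gbp2b, a guanylate-binding protein, had rank 20 of 14997 in DCC IFN-gamma at 1100 RPKM against rank 8319 and 2.29 RPKM in the lesion. Isg15, a ubiquitin-like modifier, had rank 22 at 964 RPKM against rank 4025 and 9.92 RPKM, with 1324 and 603.4 RPKM in the treated replicates. Untreated DCC had ranks 6891 and 5266 for these genes. Lgals1, galectin-1, had rank 26 at 927 RPKM against rank 9896 and 0.796 RPKM in the lesion, and rank 22 in untreated DCC. Vim had rank 28 at 919 RPKM against rank 2175 and 19.4 RPKM. In the lesion Trf, transferrin, had rank 9 at 1570 RPKM and had 2.13 RPKM in DCC IFN-gamma. Gbp2b, Lgals1 and Trf were chosen after their values were seen.

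One pattern ran along the genome, and it was noticed after the values had been seen. On chromosome 4 (GRCm38), 464 genes with at least 5 CPM in every group had a median log2 difference of 1 between DCC IFN-gamma and the lesion, on log2(CPM + 0.5), against 0.03 on all other chromosomes. Above 0 were 86% of them, against 51.6% elsewhere. Each pairing of a treated with a lesion library gave a chromosome 4 median from 0.93 to 1.05. All 8 bins of 20 Mb gave medians from 0.59 to 1.18, the lowest in the bin from 60 to 80 Mb, which held only 15 genes, and without that bin from 0.71 to 1.18. Untreated DCC against the lesion gave 0.84 on this chromosome, and treated against untreated DCC 0.13 against 0.1 elsewhere. The TUBO line, another group of the series, gave 0.36 against the lesion, with 0.03 elsewhere. TUBO also had 0.36 on chromosome 19 and -0.32 on chromosome 14, so its value was not particular to chromosome 4. Of 927 tested genes on chromosome 4, 423 (45.6%) were called higher in DCC IFN-gamma and 98 (10.6%) lower, against 3268 (21.7%) and 2980 (19.8%) of 15060 genes elsewhere. Cdkn2a lies on this chromosome (chr4:89274471-89294653). Chromosome 16 had a median of 0.43 over 268 genes and the X chromosome -0.29 over 238 genes. Copy number was not measured, and the cause was not tested.

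**Figure D5:**
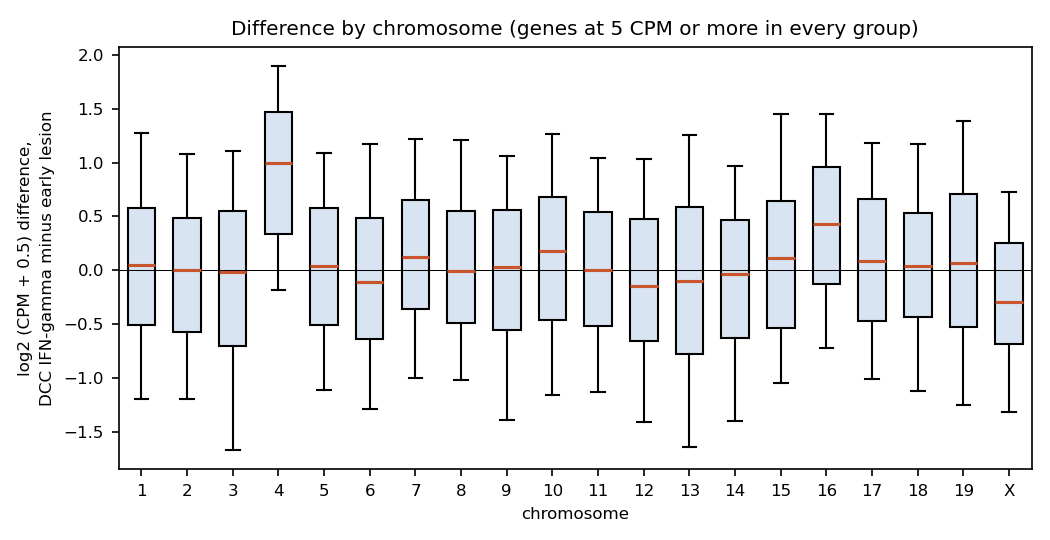
Log2(CPM + 0.5) difference between DCC IFN-gamma and early lesion for genes with at least 5 CPM in every group, by chromosome, with the median in orange, the box from the 25th to the 75th percentile of genes and whiskers from the 10th to the 90th. The chromosome 4 median is 1, while those of the other chromosomes lie between -0.29 and 0.43.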

How the data were processed

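RNA extracted with the RNeasy Mini Kit was turned into libraries with a Nugen Ovation mouse RNA-seq kit, per the labels' protocols. What the authors deposited is a table of raw counts for each gene symbol. The submitters' processing notes list TopHat, HTSeq 0.6.1 and mm10. The annotation, strand setting and filters are not stated there, so overlapping and antisense genes are uncertain. Of the table, 23478 gene entries were used. Its 5 closing entries, 38.9% to 57.2% of all counts in the 4 libraries compared, stayed out of library sizes and tests.

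CPM values use TMM-normalized library sizes. edgeR 4.0.16 (R 4.3.3) fitted 4 group means over 8 libraries after filterByExpr with a minimum count of 10, with 4 residual degrees of freedom and a common biological coefficient of variation of 0.4158, and tested DCC IFN-gamma minus early lesion by the quasi-likelihood test. Errors beside log2 fold changes are approximate standard errors (SE), worked back from the F statistic of each gene's quasi-likelihood test. They were not estimated directly. Each group has 2 libraries, but the spread behind these errors comes from the fit over all 8 libraries. Where a group is near 0, the fold change depends on the prior count of the fit, and so does its error. Intervals on count ratios (95%) and limits from 3 counts cover counting error alone, because the reads carry no molecular identifiers. RPKM used exon lengths of GENCODE M21, which matched 15987 of 17069 tested genes by symbol. The script was tested on simulated data.

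Members and the 44 gene lists were chosen with earlier results of these data known, so lists are described by counts and medians and have no test. Genes named are the 10 largest called increases and decreases with libraries that do not overlap and at least 10 CPM in the higher group (predicted, clone and Rik names left out), up to 4 called members per list in its main direction with at least 5 CPM and 1 in the other, and a panel of 26 genes. A few genes that this rule picks are not reported here. Other members named were chosen after their values were seen. Alternatives were RLE and upper quartile factors, 3 other filters, a replicate block, a fit of only the 2 groups, glmTreat, DESeq2 1.42.0 and leaving out libraries.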

Additional observations from a re-analysis of the deposited data

How the results depend on the processing

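Among named genes and called list members, 271 values of single genes under 1 alternative each lost the call, and 0 changed sign. Another 6513 values were unchanged, which for named genes not called in the main fit means that they stayed not called. The 271 include losses under glmTreat, described next. The counts of 3876 higher and 3272 lower genes became 1945 and 1715 when edgeR's glmTreat tested against a 2-fold change, which by construction asks for larger differences. They stayed within 1.5 times under all others: 3459 and 3727 with upper quartile factors, 3327 and 3390 in the fit of only 2 groups, 4199 and 3653 with DESeq2, and 3091 to 3572 and 2639 to 3193 without single libraries. The correlation of same-numbered deviations was -0.006 between DCC IFN-gamma and the lesion. It was -0.424 between untreated DCC and the lesion and 0.113 between untreated and treated DCC. With 2 libraries per group these values cannot show whether replicate numbers pair the samples. The replicate block gave 3751 and 3170.

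List medians changed sign as follows, and the cause was not tested. The erythroid median of -0.77 became 2.14 with the filter of 50 counts, 2.07 in the fit of only 2 groups and 1.44 without early lesion replicate 2 and DCC control replicate 1, and ran from -5.24 to 0 without single libraries, the last without early lesion replicate 2. The neutrophil and mast cell median of -4.21 became 0.72 without both those libraries and ran from -5.16 to 0.36. Glial genes went from -1.46 to 0.98 with the filter of 5 CPM and to 0.14 without both, and reached -1.79 without DCC IFN-gamma replicate 1. Contractile genes (0.36) ran from -0.64 without DCC IFN-gamma replicate 2 to 1.4 without early lesion replicate 2, with -0.28 without early lesion replicate 1. Glycolysis genes (0.26) ran from -0.2 without DCC IFN-gamma replicate 2 to 0.58 without replicate 1. Each group has 2 libraries.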
